A study of Triticum aestivum with 18 samples.

Results

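PsbO, PsbP and petC encode proteins of the chain that carries electrons from water towards carbon fixation in the chloroplast. PsbO and PsbP are extrinsic subunits on the inner side of photosystem II, the complex that splits water: PsbO stabilises the manganese cluster, and PsbP helps to hold the calcium and chloride that the cluster needs. The petC gene encodes the Rieske iron-sulphur protein of the cytochrome b6f complex, which passes electrons from plastoquinol on towards plastocyanin and photosystem I. In plants all 3 genes lie in the nucleus, and their proteins are imported into the chloroplast. Their transcripts are among the abundant messages of green leaves.

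The 3 genes were read by 5 of the 61290 probe sets on an Affymetrix wheat array. Members were all probe sets whose symbol in the platform annotation, or whose synonym in the gene table, was PsbP, PsbO or petC. PsbO (annotated as LOC543291, synonym OEE1) had 1 probe set, whose name ends in _a_at. PsbP (annotated as LOC543290, synonym OEE2) had 2, and petC (synonyms ISP and RISP) had 2. Within each of these genes the 2 are told apart by the start of their names, Ta or TaAffx, and the full names head the panels of the plots. The TaAffx probe set of PsbP ends in _x_at, and the other 3 end in _at. In Affymetrix names an ending of _x_at marks probes that may also match other sequences, and _a_at marks probes shared by transcripts of one gene. Bread wheat is hexaploid, so homoeologous copies may be read together. The levels of different probe sets are not comparable, because probes differ in how strongly they bind.

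The arrays held leaf RNA of 2 near-isogenic wheat lines grown in a greenhouse, TXGBE273, which resists the greenbug aphid, and TXGBE281, which is susceptible. Plants of both lines were at the 3-leaf stage and were sampled at 0 h, labelled as control, or at 24 h or 48 h of infestation with greenbug biotype E. Each of these 6 groups had 3 arrays, and no uninfested plants of 24 h or 48 h were analysed here, so in a change from 0 h the aphids, plant age and hour of sampling cannot be told apart. Whether the replicates were separate plants is not stated, and p-values therefore reflect only the spread among these samples, which may be technical. In leaf tissue, fewer green cells and less of a transcript per cell cannot be told apart.

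Values are MAS5 signals, Affymetrix's summary of a probe set's brightness, and changes were tested with limma on log2(signal + 16). A probe set is called where its p, adjusted by Benjamini-Hochberg over all tested probe sets, is under 0.05. All 18 arrays had a 2% trimmed mean of 500.1, as after scaling to a common target. Control probes for hybridisation, which read non-plant transcripts normally added in fixed amounts, averaged 12.34 to 12.73 (log2) at 0 h and 11.46 to 12.20 after infestation, without overlap. The brightest signal on an array likewise lay between 72379 and 100615 at 0 h and between 48121 and 65211 after infestation. Scaling on those controls moved the median over all tested probe sets of the log2 change to 0.55 (24 h) and 0.34 (48 h) in resistant leaves and to 0.32 and 0.56 in susceptible leaves. The same medians were -0.02, -0.06, -0.07 and -0.08 as deposited. The ratio of 3′ to 5′ signal of actin, a sign of RNA quality, was above 1 on 5 of 6 arrays at 0 h (range 0.702 to 7.67) and under 1 on 10 of 12 infested arrays (0.273 to 4.86), and its part in the results was not tested. The same ratio overlapped between 0 h and infested arrays for glyceraldehyde phosphate dehydrogenase (0.234 to 0.577 and 0.136 to 0.871) and ubiquitin (0.432 to 0.496 and 0.43 to 0.5). The 31 probe sets of carbon fixation genes, markers of leaf mesophyll, summed to between 206787 and 286372 at 0 h and between 104911 and 153604 after infestation, without overlap. In 5 of them every group mean was above 1000, and most of the others were dim. The 13 probe sets of grain gliadins and glutenins summed to between 280.9 and 1234 in 5 groups, and to between 2383 and 5295 in susceptible leaves at 48 h. The probe sets of the gliadin-type gene LMGli2482 had highest group means of 1562 and 1925, and no other of the 13 had a group mean above 161.3.

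PsbO, the manganese-stabilising subunit, was lower after infestation in both lines on the deposited scale, to about 0.52 to 0.64 of its level at 0 h, and this change was not called on the quantile scale or on the scale of the hybridisation controls. Its signal on the 3 resistant arrays was 62927, 73332 and 73631 at 0 h, 44951, 45728 and 40300 at 24 h, and 40687, 46764 and 38902 at 48 h. Susceptible arrays read 59696, 58910 and 53917 at 0 h, 35800, 41656 and 33264 at 24 h, and 35060, 31377 and 23921 at 48 h. Every infested array was dimmer than the 0 h arrays of the same line, and the 24 h and 48 h arrays overlapped in each line. Group means were 69963 ± 6095 (SD, n = 3), 43660 ± 2935 and 42117 ± 4121 in resistant leaves, and 57508 ± 3135, 36907 ± 4304 and 30119 ± 5675 in susceptible leaves. The log2 change from 0 h was -0.68 ± 0.13 (SE, limma adjusted p = 0.000237) at 24 h and -0.73 (adjusted p = 9.27e-05) at 48 h in resistant leaves. Susceptible leaves had -0.65 (adjusted p = 0.000362) and -0.95 (adjusted p = 3.19e-06). After median centring these 4 changes were -0.60, -0.63, -0.50 and -0.82, all still called (adjusted p = 0.000803, 0.000448, 0.0038 and 2.14e-05). With the arrays forced to one distribution by quantile normalization, the 4 values were 0.04, -0.03, -0.06 and -0.28 (adjusted p = 0.824, 0.889, 0.764 and 0.0578), so the first one turned in direction. On the hybridisation control scale they were -0.02, -0.25, -0.19 and -0.21 (adjusted p = 0.94, 0.194, 0.354 and 0.249). Relative to the median of all tested probe sets on that scale they were -0.56, -0.59, -0.51 and -0.77. Subtracting that median largely takes the control factor out again, so these last values lie near the median-centred ones by construction and are no separate check.

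PsbP, which helps photosystem II hold its calcium and chloride, fell in both lines, and its 2 probe sets differed in the size of the fall. On its TaAffx probe set the signal of the 3 resistant arrays was 51084, 55167 and 55545 at 0 h, 18715, 23231 and 20169 at 24 h, and 13808, 16608 and 18046 at 48 h. Susceptible leaves gave 50905, 51888 and 46719 at 0 h, 12964, 19284 and 11071 at 24 h, and 9289, 8893 and 7363 at 48 h. No infested array came near the 0 h arrays, and the 3 susceptible arrays at 48 h were the lowest of all 18. Log2 changes on this probe set were -1.39 ± 0.15 (SE, limma adjusted p = 5.21e-07) at 24 h and -1.75 (adjusted p = 1.94e-08) at 48 h in resistant leaves. For susceptible leaves they were -1.82 (adjusted p = 9.77e-09) and -2.55 (adjusted p = 5.91e-11), which leaves 0.282 and 0.17 of the 0 h level. Of all probe sets tested, 2.26% had a lower change than this one in susceptible leaves at 48 h. These 4 falls stayed called on every scale tried: they were -0.78, -1.17, -1.37 and -2.15 under quantile normalization, and -0.72, -1.26, -1.37 and -1.82 on the hybridisation control scale.

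The Ta probe set of PsbP read 65981, 80617 and 74738 at 0 h, 39284, 40307 and 35811 at 24 h, and 33021, 39197 and 34794 at 48 h in resistant leaves. The susceptible arrays gave 67001, 65381 and 58977 at 0 h, 29923, 35835 and 28004 at 24 h, and 25595, 23873 and 20784 at 48 h. Again the infested arrays lay below the 0 h arrays in each line, by less than on the other PsbP probe set. Its log2 change was -0.94 ± 0.11 (SE, limma adjusted p = 1.33e-06) and later -1.05 (adjusted p = 2.5e-07) in resistant leaves, and -1.03 (adjusted p = 2.91e-07) and -1.45 (adjusted p = 1.65e-09) in susceptible leaves. Quantile normalization moved these values to -0.22, -0.29, -0.45 and -0.82, and the resistant value at 24 h lost its call (adjusted p = 0.104). Scaling on the hybridisation controls gave -0.28, -0.57, -0.58 and -0.71, and the resistant value at 24 h was again without a call (adjusted p = 0.145).

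The bright Ta probe set of petC, the Rieske protein gene, fell in both lines to about 0.43 to 0.54 of its 0 h level. Its signal was 57714, 69539 and 63549 at 0 h, 36121, 35433 and 30782 at 24 h, and 31269, 35592 and 30178 at 48 h in resistant leaves. On susceptible arrays it was 60570, 56273 and 52070 at 0 h, 30043, 32448 and 28727 at 24 h, and 26012, 24099 and 22587 at 48 h. The 0 h and infested arrays did not overlap in either line, and the susceptible arrays at 48 h lay below all others. The Rieske protein transcript changed on the log2 scale by -0.90 ± 0.10 (SE, limma adjusted p = 6.11e-07) and at 48 h by -0.97 (adjusted p = 1.69e-07) in resistant leaves, and -0.89 (adjusted p = 5.81e-07) and -1.22 (adjusted p = 4.78e-09) in susceptible leaves. Under quantile normalization they shrank to -0.22, -0.24, -0.34 and -0.58, all still called. On the hybridisation control scale they were -0.24, -0.49, -0.43 and -0.48, and the resistant value at 24 h was not called (adjusted p = 0.192).

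**Figure D1:**
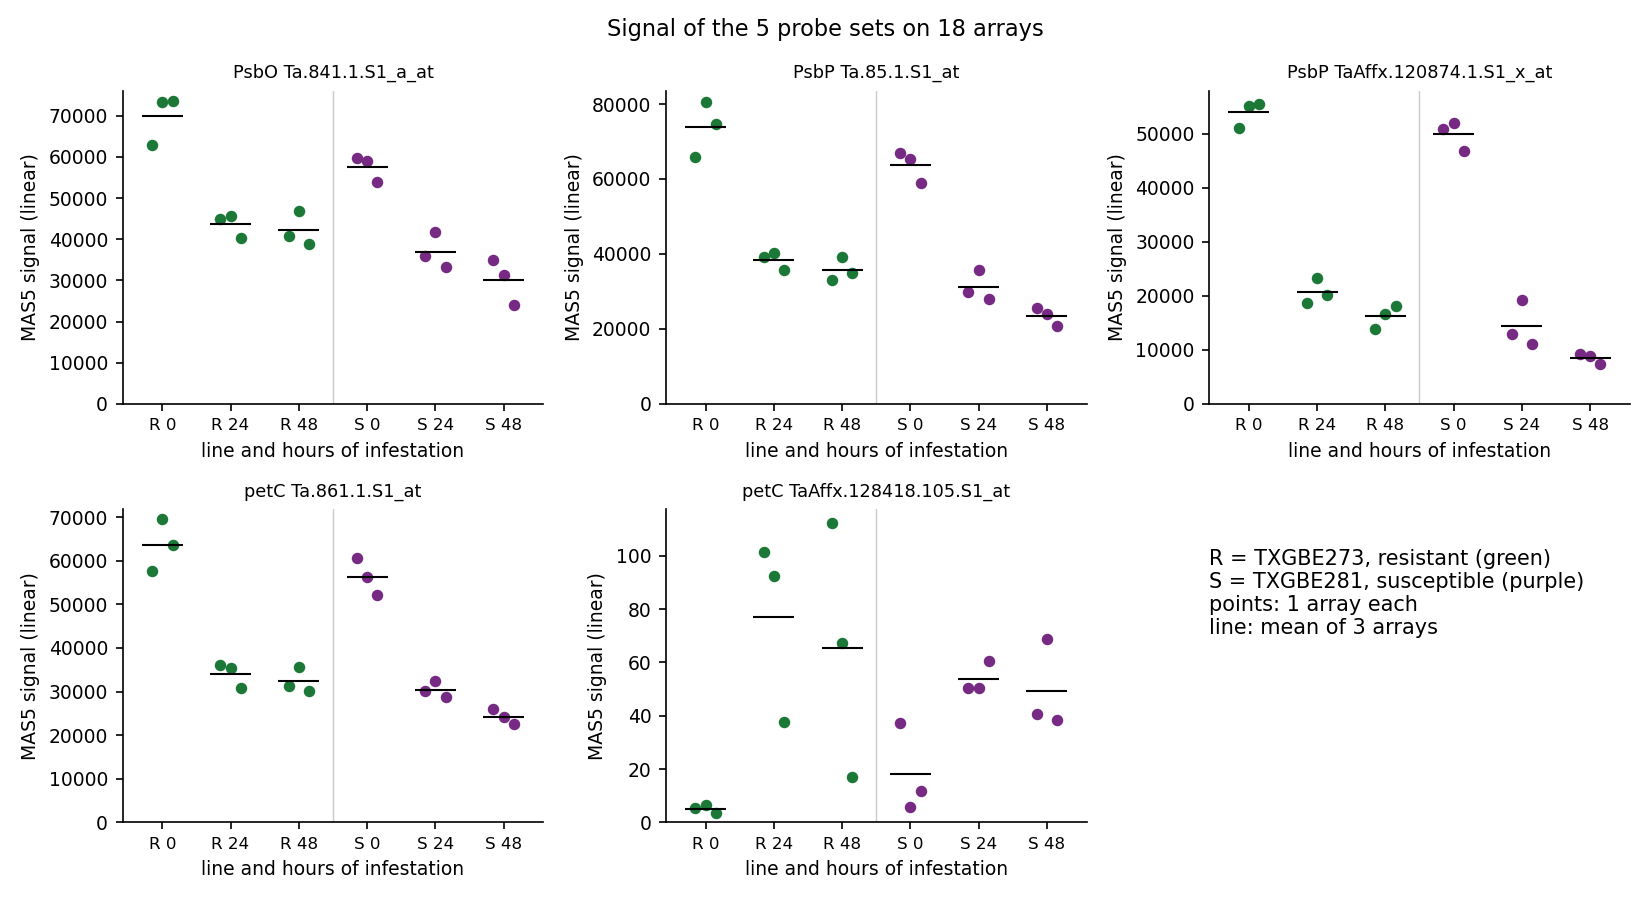
MAS5 signal (linear axis from 0) of the 5 probe sets on the 18 arrays, by line and hours of infestation; points are single arrays and bars are means of 3. For PsbO, both PsbP probe sets and the Ta probe set of petC every infested array lies below the 0 h arrays of its line, while the TaAffx probe set of petC has its infested arrays above, the highest at 112.2.

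The TaAffx probe set of petC was dim and was higher after infestation. It read 5.40, 6.54 and 3.32 at 0 h, 101.6, 92.3 and 37.8 at 24 h, and 112.2, 67.2 and 16.9 at 48 h in resistant leaves. The susceptible arrays read 37.2, 5.93 and 11.7 at 0 h, 50.5, 50.3 and 60.7 at 24 h, and 40.5, 68.8 and 38.4 at 48 h. Infested arrays were thus above the 0 h arrays of their line throughout, with a wide spread at 48 h in resistant leaves. On the log2(signal + 16) scale, which understates changes of such low signals, it was higher in resistant leaves by 2.07 ± 0.50 (SE, limma adjusted p = 0.00305) at 24 h and 1.75 (adjusted p = 0.0102) at 48 h. The size depends on the offset: an offset of 1 gave 3.6 and 3.12, and an offset of 64 gave 1 and 0.84, all called. The values of 1.128 and 1.004 in susceptible leaves were not called (adjusted p = 0.096 and 0.133), although on the hybridisation control scale both were (1.36 and 1.45, adjusted p = 0.0402 and 0.0223), as was the first under quantile normalization (1.32). The resistant call at 48 h was lost without replicate 1 of that group (1.31, adjusted p = 0.0764) and in a fit to the compared arrays alone (adjusted p = 0.0591), and the susceptible one at 24 h was gained without replicate 1 at 0 h (1.499, adjusted p = 0.0427). This probe set passed the filter on dim signals, the 40th percentile of an array, on 6 arrays, all of them infested, so a probe set flat at its 0 h level would not have been tested, and these calls are a description. Its name shares a cluster number with 112 other probe sets, of which 5 carry the symbol of another gene.

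In number, 4 of the 5 probe sets were called lower in each of the 4 comparisons with 0 h, where limma called 14.5% and 16.3% of all 46251 tested probe sets lower in resistant leaves at 24 h and 48 h, and 16.3% and 19.1% in susceptible leaves. For those 4 the arrays of both groups were also apart, as they were, with infested arrays lower, for 20.9%, 22.5%, 22.6% and 25.9% of the tested probe sets. The median log2 change of the 5 was -0.90, -0.97, -0.89 and -1.22, against -0.02, -0.06, -0.07 and -0.08 over all tested. Shares and medians over all tested probe sets, here and below, were not matched for brightness. The 4 bright probe sets stood near the top of every array at 0 h, and the brightest signal of an array was itself lower after infestation. The remaining probe set, the dim one of petC, was called higher in resistant leaves, as were 17.6% and 17.4% of all tested probe sets, and not in susceptible leaves, where 17.1% and 17.8% were. Its infested arrays were all above those of 0 h, as in 22.4%, 21%, 21% and 22.4% of all tested. Because this dim probe set passed the filter only through infested arrays, its calls are a description here too. Among all calls the lower ones made up 45.2%, 48.4%, 48.7% and 51.7% as deposited. On the hybridisation control scale this share was 12.5%, 20.6%, 22.7% and 17.1%, and median centring gave 38% in susceptible leaves at 24 h. The comparisons of one line share its 0 h arrays.

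**Figure D2:**
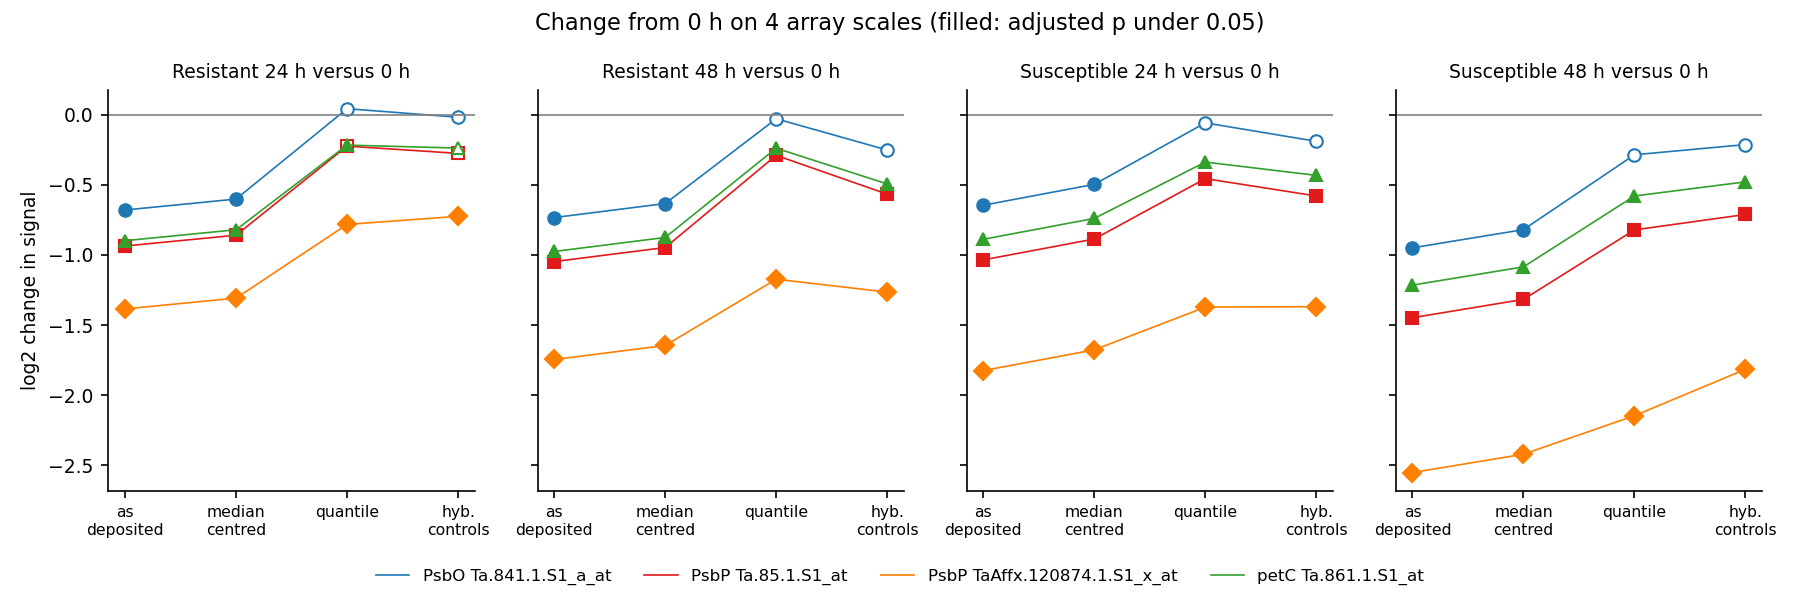
Log2 change from 0 h of the 4 bright probe sets (y axis) as deposited, after median centring, after quantile normalization and on the hybridisation control scale (x axis), with filled symbols for adjusted p under 0.05. The TaAffx probe set of PsbP is filled and lowest throughout, and PsbO is open on the last 2 scales in all 4 comparisons, with 0.04 under quantile normalization in resistant leaves at 24 h.

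The place of a probe set in the brightness order of its array does not change with a scaling factor for the whole array. Among 61179 probe sets PsbO stood at place 19 to 29 in resistant leaves at 0 h, 16 to 27 at 24 h and 23 to 33 at 48 h, with overlapping ranges. On susceptible arrays PsbO went from place 27 to 31 at 0 h to 16 to 62 at 24 h and 40 to 154 at 48 h. In resistant leaves PsbO thus stayed among the 33 brightest probe sets, while its deposited signal was lower. By contrast, the TaAffx probe set of PsbP went from place 59 to 73 at 0 h to 329 to 515 at 48 h in resistant leaves, and from 56 to 69 to 974 to 1321 in susceptible leaves. The Ta probe set of PsbP went from 17 to 19 to 38 to 78 and from 15 to 18 to 138 to 222. The Ta probe set of petC went from 37 to 41 to 72 to 95 and from 29 to 35 to 131 to 177. Both PsbP probe sets and this petC probe set were placed lower on every infested array than on any 0 h array of the same line.

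**Figure D3:**
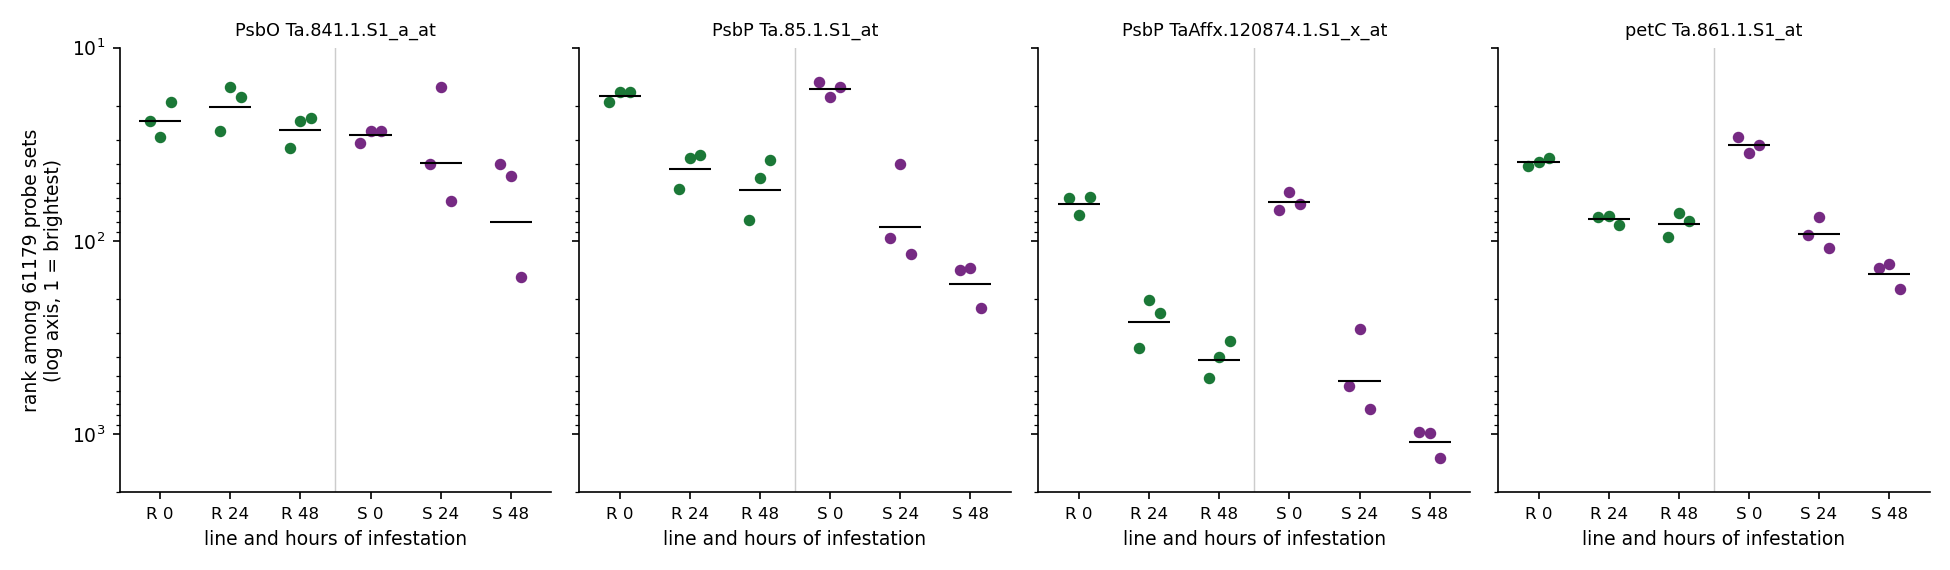
Place of the 4 bright probe sets in the brightness order of each array (log axis with brighter places higher, 1 being the brightest of 61179), by line and hours of infestation; points are arrays and bars are means of 3. PsbO stays between 16 and 33 on all 9 resistant arrays, whereas the TaAffx probe set of PsbP drops to between 974 and 1321 in susceptible leaves at 48 h.

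Ratios of probe sets on the same array, from which such a factor also drops out, showed unequal change among the members. The log2 ratio of the TaAffx probe set of PsbP to PsbO was -0.37 ± 0.06 (SD, n = 3) at 0 h, -1.08 ± 0.16 at 24 h and -1.39 ± 0.24 at 48 h in resistant leaves. For TXGBE281 it was -0.21 ± 0.02, -1.39 ± 0.25 and -1.81 ± 0.11. Infested arrays had lower ratios than the 0 h arrays of their line in all cases, and the 24 h and 48 h ratios overlapped in resistant leaves only. The Ta probe set of PsbP moved less against PsbO, from 0.08 ± 0.06 to -0.18 ± 0.01 and -0.24 ± 0.07 in resistant leaves. On susceptible arrays that ratio went from 0.15 ± 0.02 to -0.24 ± 0.02 and -0.35 ± 0.13, again with 0 h and infested arrays apart. Between the 2 PsbP probe sets the log2 ratio of Ta to TaAffx went from 0.45 ± 0.09 to 0.90 ± 0.15 and 1.15 ± 0.17, and from 0.36 ± 0.04 to 1.15 ± 0.23 and 1.46 ± 0.04 in susceptible leaves. The 2 probe sets of this gene therefore disagree on the size of its fall. Which subgenome copies each of them reads is not given in the sources used here. Ratios were not tested.

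**Figure D4:**
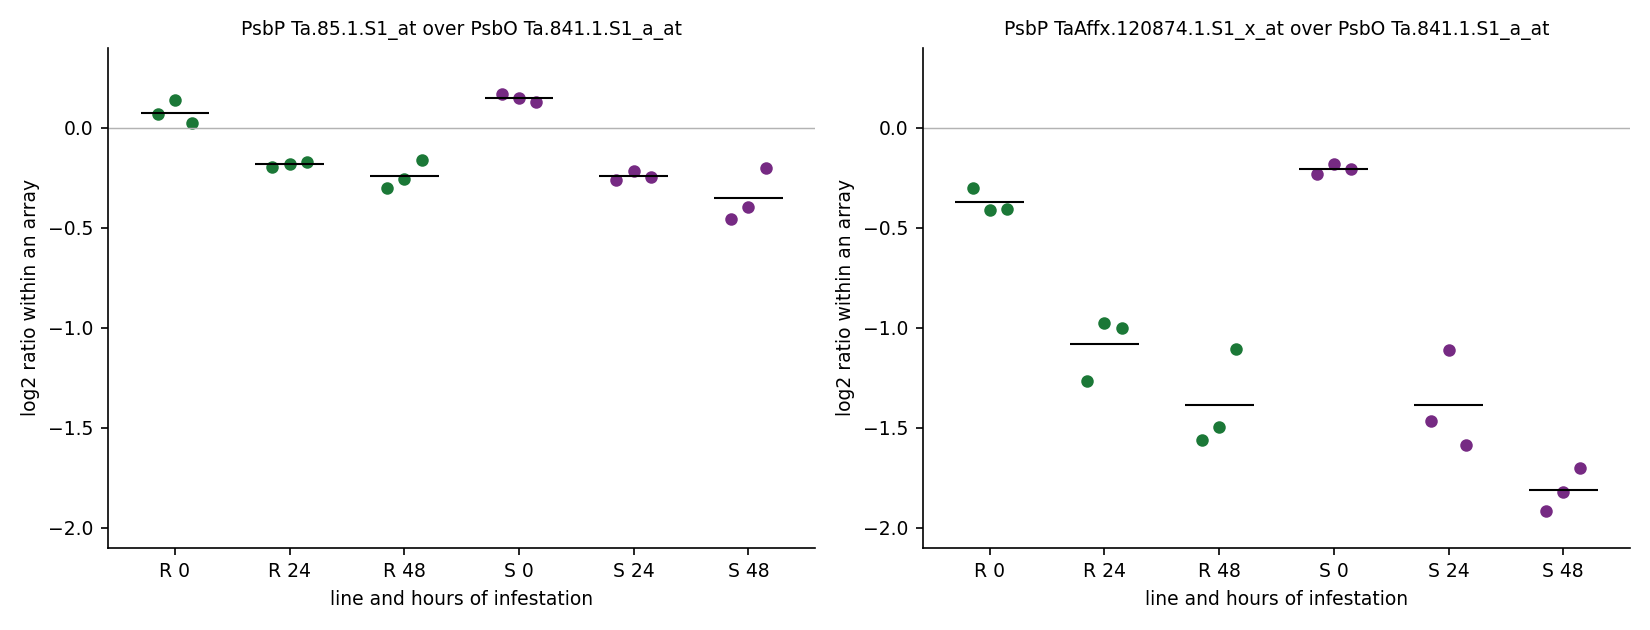
Log2 ratio within each array of the Ta (left) and TaAffx (right) probe sets of PsbP to the PsbO probe set, by line and hours of infestation; points are arrays and bars are means of 3. In both panels all infested arrays lie below the 0 h arrays of their line, down to a mean of -1.81 on the right in susceptible leaves at 48 h.

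The group means had the same order for PsbO, both PsbP probe sets and the bright petC probe set. Resistant leaves at 0 h were highest, followed by susceptible leaves at 0 h, resistant leaves at 24 h, resistant leaves at 48 h, susceptible leaves at 24 h and susceptible leaves at 48 h. Of the neighbours in this order, the lines at 0 h and the resistant leaves of 24 h and 48 h were not told apart by limma for any of the 4 probe sets. The arrays of resistant leaves at 48 h and susceptible leaves at 24 h overlapped for all 4, and no difference between these 2 groups was tested.

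Between 24 h and 48 h the question was whether the transcripts kept falling. In the resistant line limma called 0 of the 5 probe sets, against 5.17% of all tested, and 1 of them had an unadjusted p under 0.05, against 17.5%. That one was the TaAffx probe set of PsbP, with a log2 change of -0.36 (adjusted p = 0.213) and the 48 h arrays all below the 24 h arrays, as for 12.7% of all tested. Among susceptible arrays 3 of the 5 were called lower, against 5.32% of all tested. They were the TaAffx probe set of PsbP at -0.73 ± 0.15 (SE, adjusted p = 0.00374), the Ta probe set of PsbP at -0.41 (adjusted p = 0.0202) and the Ta probe set of petC at -0.33 (adjusted p = 0.0427), each with the arrays apart, as for 16.4% of all tested. PsbO changed by -0.30 without a call (95% interval -0.57 to -0.04, adjusted p = 0.15). Scaled on the hybridisation controls, the 3 called values were -0.45, -0.13 and -0.05, none of them called (adjusted p = 0.182, 0.713 and 0.912). Relative to the median of all tested probe sets on that scale they were -0.665, -0.351 and -0.265, which largely takes the control factor out again and is no separate check. All 3 calls were also lost with the compared arrays alone (adjusted p = 0.0527, 0.0753 and 0.0695), those of the Ta probe sets without the variance trend (0.0846 and 0.136), and that of petC without the filter (0.0802). The call of the Ta probe set of PsbP was also lost without replicate 2 at 24 h (-0.31) or replicate 3 at 48 h (-0.33), as was that of petC (both -0.28), which was lost too without replicate 1 at 24 h (-0.34) or replicate 2 at 48 h (-0.33). Lower calls made up 50.4% of all calls in resistant and 52.5% in susceptible leaves as deposited, and 76.7% and 13.3% on the hybridisation control scale.

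The lines were next compared at 0 h, the control time. There limma called 0 of the 5 probe sets between the lines, against 0.0216% of all tested, and 1 had an unadjusted p under 0.05, against 6.88%. That one was PsbO, by 0.28 on the log2 scale (95% interval 0.02 to 0.54, adjusted p = 0.713). Its 3 resistant arrays were above the 3 susceptible ones, as in 5.18% of all tested. For PsbP the differences were 0.21 (interval -0.03 to 0.44) on the Ta and 0.11 (-0.21 to 0.43) on the TaAffx probe set. For the bright petC probe set the difference was 0.17 (interval -0.04 to 0.39). With 3 arrays a group, these data leave room for any difference within those intervals.

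At 24 h of infestation 1 of the 5 probe sets was called higher in resistant leaves, against 2.38% of all tested. It was the TaAffx probe set of PsbP, at 0.55 ± 0.15 (SE, limma adjusted p = 0.0399), although the arrays of the lines overlapped through replicate 2 of the susceptible line (19284). The call was lost after median centring (0.48, adjusted p = 0.0806), and it was also lost without resistant replicate 2 (0.47) or 3 (0.57), or without susceptible replicate 1 (0.50) or 3 (0.38). Without susceptible replicate 2 the value was 0.78 and the Ta probe set of PsbP was called as well, at 0.41. The differences of PsbO (0.25), the Ta probe set of PsbP (0.31) and the Ta probe set of petC (0.16) were not called (adjusted p = 0.357, 0.144 and 0.485). Of all calls at 24 h, 53.9% were lower in resistant leaves as deposited, 66.8% after median centring and 32% on the hybridisation control scale.

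At 48 h the 4 bright probe sets were all called higher in resistant than in susceptible leaves, against 6.69% of all tested called higher. The TaAffx probe set of PsbP was higher by 0.92 ± 0.15 (SE, limma adjusted p = 0.000351), or 1.89-fold, and the Ta probe set of PsbP by 0.61 (adjusted p = 0.000833). PsbO was higher by 0.50 (adjusted p = 0.0113) and petC by 0.42 (adjusted p = 0.00853). For each of them the 3 resistant arrays lay above the 3 susceptible arrays, as was so for 16.4% of all tested probe sets. On the hybridisation control scale, where the median of all tested probe sets was -0.24, the TaAffx probe set of PsbP kept its call (0.62, adjusted p = 0.0362), while its Ta probe set (0.30), PsbO (0.19) and petC (0.11) were not called. PsbO lost its call under quantile normalization too (0.30, adjusted p = 0.0999), without the variance trend (adjusted p = 0.0544) and with the compared arrays alone (adjusted p = 0.052). The calls of PsbO and petC were lost without resistant replicate 2 at 48 h (0.42 and 0.34) or without susceptible replicate 3 at 48 h (0.34 and 0.37). Of all calls at 48 h, 44.6% were lower in resistant leaves as deposited and 81.1% on the hybridisation control scale. The grain storage list, which had its highest sums in susceptible leaves at 48 h, had 2 of 8 tested probe sets lower in resistant leaves, both of LMGli2482 (-3.84 and -3.57), against 5.39% of all tested. Its part in the result was not tested. The glutenin and gliadin probe sets other than those of LMGli2482 had group means between 1.69 and 161.3.

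Whether the lines responded differently was asked by the difference of their changes, called line by infestation. From 0 h to 48 h, 1 of the 5 probe sets was called higher, against 2.53% of all tested. The TaAffx probe set of PsbP had fallen by less in resistant leaves, by 0.81 ± 0.22 (SE, limma adjusted p = 0.035, 95% interval 0.35 to 1.26) on the log2 scale. For the Ta probe set of PsbP the difference was 0.40 (interval 0.07 to 0.73, adjusted p = 0.172), for PsbO 0.22 (-0.15 to 0.59) and for petC 0.24 (-0.06 to 0.54), all without a call. The called difference was 0.97 under quantile normalization (adjusted p = 0.0193), where the Ta probe set of PsbP was called too (0.53). Scaling on the hybridisation controls gave 0.55, not called (adjusted p = 0.361), or 0.74 relative to the median of all tested probe sets on that scale. The value of 0.74 has the control factor largely taken out again and is no separate check. The difference was also not called without the filter (adjusted p = 0.0504) or without the variance trend (adjusted p = 0.122). Leaving out single arrays gave values of 0.70 to 0.91, called in 2 of 12 cases, those without replicate 1 of either line at 48 h. From 0 h to 24 h and from 24 h to 48 h limma called 0 of the 5, against 1.6% and 0.0432% of all tested, and 0 had an unadjusted p under 0.05, against 11.9% and 6.97%. The values of the TaAffx probe set of PsbP were 0.44 (adjusted p = 0.442) and 0.37 (adjusted p = 0.79), the first of them 0.67 and called without susceptible replicate 2 at 24 h (adjusted p = 0.0355). Of the line by infestation calls from 0 h to 24 h, 60.7% were lower as deposited and 38.9% on the hybridisation control scale, and from 0 h to 48 h, 50% and 79.9%. From 24 h to 48 h the shares were 20% and 55.6%.

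**Figure D5:**
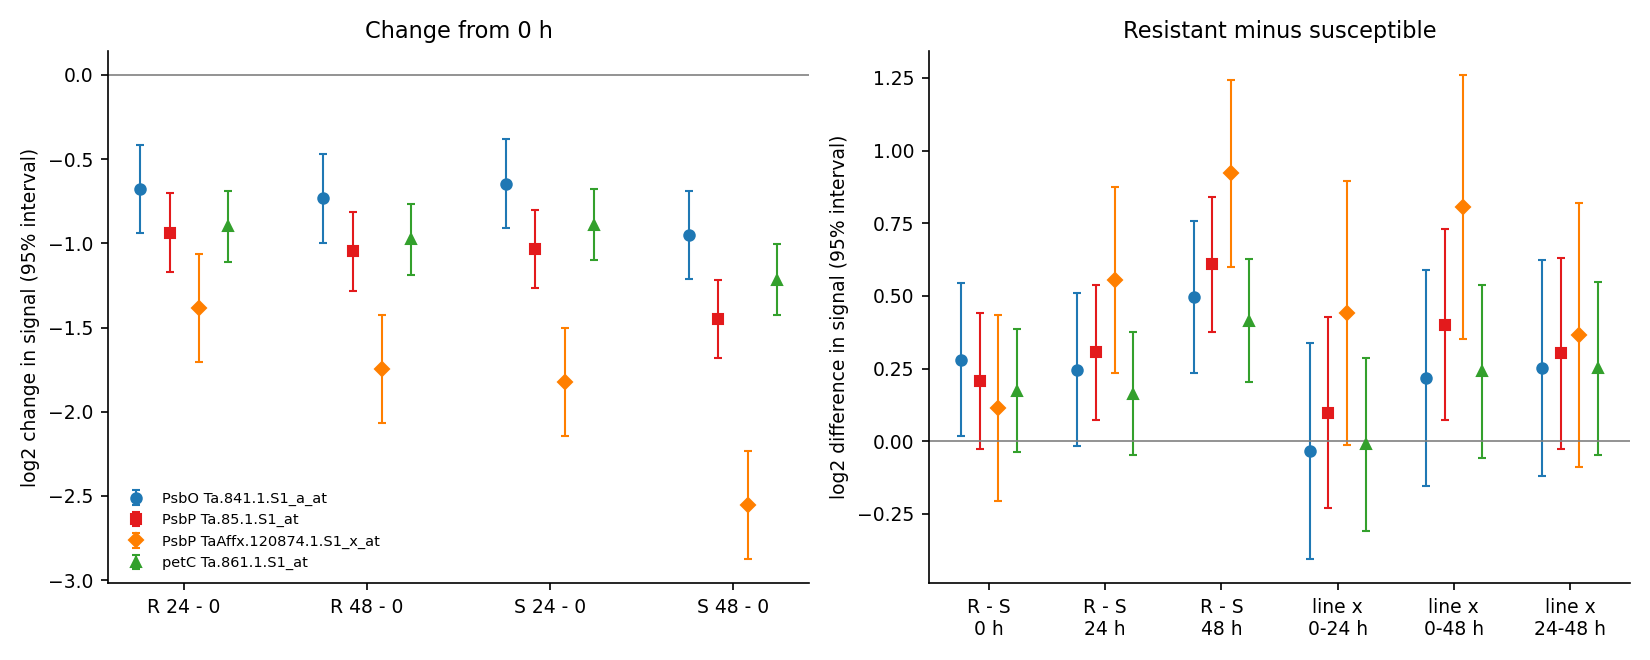
Log2 changes from 0 h (left) and log2 differences between the lines, resistant minus susceptible, at each time and as line by infestation (right), for the 4 bright probe sets with 95% intervals from limma. On the left all intervals lie below 0, and on the right the TaAffx probe set of PsbP has the largest value in every column from 24 h on, 0.92 at 48 h.

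Over the 18 arrays the 4 bright probe sets followed each other closely, with Pearson's r between 0.953 and 0.992. These points share arrays, their scaling and the split into 0 h and infested leaves. Deviations from the group means, which leave that split out, had r between 0.465 and 0.916, and 0.775 between the 2 PsbP probe sets. The dim petC probe set had r between -0.701 and -0.609 with the others, and as deviations from group means between -0.243 and 0.444, positive with 3 of the 4. Among the 1096 annotated and tested probe sets, the genes closest to the TaAffx probe set of PsbP were LOC543089 (r = 0.993), LOC100037649 (0.992) and LOC542880 (0.986). LOC100037649 had log2 changes of -1.66 and -2.11 for resistant and -1.79 and -2.55 for susceptible leaves. Closest to petC were LOC100049048 (0.994), PsbP itself (0.992) and CAT1 (0.987), the gene of a peroxide-removing catalase, whose changes ran from -1.84 to -2.43. Closest to the Ta probe set of PsbP were petC (0.992), LOC543089 (0.989) and LOC542868 (0.983). PsbO had PsbP (0.981), LOC543472 (0.976) and LOC732707 (0.972) closest to it. The dim petC probe set had lower values, with LOC606332 (0.872), LOC100037523 (0.869) and LOC543328 (0.858).

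Of the other genes of the light reactions that were looked for (photosystem subunits, light-harvesting proteins, cytochrome b6f, plastocyanin, ferredoxin, chloroplast ATP synthase and the chloroplast NDH complex), only 1 annotated probe set matched by symbol or synonym. The annotation covered 1273 of the 61290 probe sets, so this count does not tell how many such genes the array reads. The matching probe set carried atpA as a synonym beside IVR1 and hydrolase, had group means of 6.41 to 21.9 and did not pass the filter. Carbon fixation genes downstream, rbcL of the Rubisco large subunit, the phosphoribulokinase gene PRK and the bisphosphatase gene FBP, had 31 probe sets, of which 23 were tested; 28 of the 31 read rbcL. In the resistant line 9 and 11 of them were lower at 24 h and 48 h, and in susceptible leaves 13 and 12, with 0 higher, against 14.5%, 16.3%, 16.3% and 19.1% of all tested called lower. Probe sets of one gene are not independent. Their median log2 change was -0.59 and -0.81, and -1.07 and -0.95. Of the 2 probe sets of the elongation factor gene TEF1, a reference gene, 1 was called higher at 24 h in each line, against 17.6% and 17.1% of all tested, and 0 at 48 h, with medians between -0.04 and 0.21.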

How the data were processed

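Leaf RNA on 18 one-colour Affymetrix wheat arrays was analysed from the deposited table of probe-set intensities, made with MAS5 per the submitters' processing notes and on a linear scale by their range. No MAS5 version is stated, and present or absent calls were not used here. Arrays were grouped by line and time from the sample titles. Signals were used as log2(signal + 16) without further normalization. After 111 control probe sets were left out, a probe set was tested if it exceeded the array's own 40th percentile on 3 or more arrays. This left 46251 of 61179, with 14928 dropped. One model with 6 group means was fitted in limma 3.58.1 (R 4.3.3) with a variance that followed the mean, and 12 comparisons were taken from it. Each was adjusted by Benjamini-Hochberg over all tested probe sets, and "called" means an adjusted p under 0.05. The fit was tested on simulated data with independent noise and no array-wide shift, so that test does not bear on the choice of array scale. The members, lists and tests were chosen with earlier results of these data known.

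All 5 member probe sets were named with their values. For each, the 3 annotated genes with the highest Pearson's r over the 18 arrays were named. Symbols came from a platform annotation with 1273 probe sets and 771 genes, 770 of them found in a RefSeq gene table (IWGSC CS RefSeq v2.1). Coordinates are left out because the study's own assembly is not stated. The number of arrays limits the precision. Alternatives were quantile normalization, median centring, scaling on 18 hybridisation control probe sets, offsets of 1 and 64, no filter or the 60th percentile, no variance trend, array weights, fits to the compared arrays alone, a block on replicate number, and leaving out each compared array in turn.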

Additional observations from a re-analysis of the deposited data

Results flagged for a closer look

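As deposited, the TaAffx probe set of PsbP was called different between the lines in its change from 0 h to 48 h. It went from a mean signal of 53932 to 16154 in the resistant line and from 49837 to 8515 in the susceptible line, a line by infestation difference of 0.81 (limma adjusted p = 0.035, against 2.53% of all tested probe sets called higher). All 3 arrays of each line were lower at 48 h than at 0 h. The hybridisation controls averaged 12.04, 12.20 and 11.84 (log2) on the resistant and 11.95, 11.75 and 11.46 on the susceptible arrays at 48 h. On their scale the difference was 0.55 without a call, or 0.74 relative to the median of all tested probe sets on that scale. Subtracting that median largely removes the control factor, so 0.74 is no separate check. The call was kept in 2 of 12 fits with a single array left out. It was lost without the filter (adjusted p = 0.0504) and without the variance trend (adjusted p = 0.122).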

How the results depend on the processing

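Counts of the 5 probe sets called moved by over 1.5 times under some setting in 6 of the 12 comparisons. On the hybridisation control scale they were 2 against 5 as deposited in the resistant line at 24 h, 0 against 3 in the susceptible line from 24 h to 48 h, 1 against 4 between the lines at 48 h, and 0 against 1 for line by infestation from 0 h to 48 h. Quantile normalization gave 3 in the resistant line at 24 h and 2 for that line by infestation, and turned PsbO from -0.68 to 0.044 in the resistant line at 24 h. All these counts of the resistant line at 24 h include the dim petC probe set, called higher. Of the falls there, only that of the TaAffx probe set of PsbP stayed called on the hybridisation control scale. Under quantile normalization that fall and that of the bright petC probe set did. Between the lines at 24 h, where 1 was called, array weights gave 2, and the compared arrays alone, median centring, no filter or no variance trend gave 0. Line by infestation from 0 h to 48 h had 0 without the filter or the trend. From 24 h to 48 h in the susceptible line the compared arrays alone gave 0 and no trend gave 1. With 1 array left out, counts ran from 0 to 1 for line by infestation up to 24 h and up to 48 h, 0 to 2 and 2 to 4 between the lines at 24 h and 48 h, and 1 to 3 in the susceptible line from 24 h to 48 h. The cause was not tested. Same-numbered replicates did not deviate together from their group means (r from -0.04 to 0.06 over 45 pairs). With the replicate number as a block the line by infestation value of PsbP was 0.81 (adjusted p = 0.019), and no call of a member changed. Over the whole array the calls without the trend were 1009 against 2390 (resistant, 24 h to 48 h), 1544 against 2382 (lines at 24 h), 390 against 738 and 1238 against 2337 (line by infestation up to 24 h and 48 h), and on the hybridisation control scale 1202, 1707, 470 and 1516. The lines at 24 h had 3641 calls with array weights and 1519 from the compared arrays. Line by infestation from 24 h to 48 h had 20, with a range of 0 to 67, and 36 with the block. The lines at 0 h had 10, with 1 to 18. Without replicate 2 of resistant or replicate 3 of susceptible leaves at 48 h, the lines at 48 h had 3614 and 3370 calls against 5586.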
